A study of Canis lupus familiaris with 222 samples.

Results

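Simple carcinomas of the canine mammary gland are malignant epithelial tumors that lack the myoepithelial proliferation of complex carcinomas. RNA-seq profiles of 20 grade 3 simple carcinomas were compared here with those of 30 grade 1 simple carcinomas, and 13 grade 2 simple carcinomas were then placed against the genes that differed. These 63 tumors were all the simple carcinomas with a grade in the study's clinical table, among 158 tumors and 64 adjacent normal mammary tissues, or 222 libraries in all. Every tumor arose spontaneously in a female dog treated by surgery, and each library came from 1 dog's tissue. Of the 30 grade 1 tumors, 4 carry the diagnosis simple adenoma in the sample labels but are grade 1 simple carcinomas in the clinical table. They were kept with grade 1, and the main results were also computed without them.

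Grade in these tumors was scored by pathologists under the Peña system, on the neoplastic epithelium alone. The system adds up how far the tumor still forms tubules, how irregular its nuclei are and how many cells are in mitosis. A low grade therefore describes a tumor that keeps glandular architecture, and a high grade a tumor that has lost it, with atypical nuclei and frequent divisions. High grade is known to go with a shorter survival of dogs with mammary carcinoma. Because tubule formation is part of the score, growth pattern is tied to grade. Among grade 3 tumors 17 were solid, 2 tubulopapillary and 1 anaplastic. The 25 grade 1 tumors with a recorded type were all tubulopapillary, as were 12 of 13 grade 2 tumors, the other being solid. The solid pattern and grade 3 can therefore not be told apart in this comparison.

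The dogs with grade 1 tumors had a median age of 13 years (2 to 16, n = 27 with an age), those with grade 2 tumors 12 years (10 to 16, n = 12) and those with grade 3 tumors 14 years (10 to 19, n = 19). Spayed dogs made up 13 of 29 with a record in grade 1 and 8 of 19 in grade 3. In grade 2, 6 dogs were spayed, 6 were intact and 1 had no record. Expression values were FPKM, in which fragments are scaled by transcript length and by library size, given for 24580 Ensembl gene identifiers without gene names. Genes are therefore called by identifier, and lists of named genes (proliferation, hormone response, cell junctions, cell type markers) were not analysed here. Mapped reads ranged from 52159703 to 147634076 per grade 1 library, from 58415043 to 104486373 per grade 2 library and from 52280834 to 94425088 per grade 3 library. Mapped reads, mapping rate, median FPKM, the number of genes at 1 FPKM or more and the share of FPKM in the 50 highest genes did not differ detectably between grade 3 and grade 1 (adjusted p = 0.966 for each of 5 permutation tests).

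Among the grade 1 libraries, 2 stood apart. The tumors CMT-686 and CMT-774 had median FPKM values of 1.96 and 2.83 over the genes tested, below the 4.00 of the lowest grade 3 library. Their median correlations with the other simple carcinomas were 0.701 and 0.754, the lowest of the 63 tumors, and only 66.6% of the reads of CMT-774 were mapped. Both tumors are from surgery in 2018, a year with 5 grade 1 tumors and 1 grade 3 tumor. The main counts are given with and without this pair.

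The clinical features of the grades were compared first, with 9 permutation tests over tumors and adjusted p-values over all 9. Lymphatic invasion was present in 13 of 20 grade 3 tumors and in 0 of 30 grade 1 tumors (adjusted p = 2.25e-05). The estrogen receptor (ER), the hormone receptor that marks luminal mammary epithelium, was scored negative in 9 of 20 grade 3 tumors and in 1 of 30 grade 1 tumors (adjusted p = 0.00081). The Allred score, which grades ER staining, was 3.70 ± 2.11 (SD, n = 20) in grade 3 and 6.73 ± 1.70 (SD, n = 30) in grade 1 (adjusted p = 2.25e-05). The basal class, which the study assigned from the expression of PAM50 genes in these same libraries, held 15 of 20 grade 3, 4 of 13 grade 2 and 2 of 30 grade 1 tumors (grade 3 against grade 1, adjusted p = 2.25e-05). An unadjusted p of 1e-05, the smallest these permutations can give, underlies each of the adjusted values of 2.25e-05.

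In the labels 8 of 20 dogs with grade 3 tumors and 3 of 30 with grade 1 tumors had died (log-rank statistic, adjusted permutation p = 0.0151), and without the 4 tumors labelled simple adenoma the adjusted p was 0.0459. Some of the other dogs in both grades are labelled as lost to follow-up. They are not counted as dead here, although their outcome is unknown. The clinical table records follow-up otherwise, with 5 more of the 50 dogs dead, other follow-up days in 40 and none in 6. With its records 9 of 17 and 6 of 27 dogs had died (adjusted permutation p = 0.0253). HER2 staining of score 3 was recorded in 9 of 20 grade 3 and 10 of 30 grade 1 tumors (adjusted p = 0.621). Mean age was 13.4 ± 2.43 years (SD, n = 19) against 11.7 ± 3.49 years (SD, n = 27), with an adjusted permutation p of 0.104. Grade 3 dogs were thus more often ER-negative, invasive and basal in class, while HER2 score, spaying and age did not pass the test. The solid type, at 17 of 20 against 0 of 25, passed as well (adjusted p = 2.25e-05), but is part of the grade itself.

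The clusters NMF1 to NMF5, which the study drew from expression over all tumors, did not divide the grades in the same way. Grade 1 tumors fell into NMF1 to NMF4 as 17, 10, 1 and 2, grade 2 tumors as 10, 1, 2 and 0, and grade 3 tumors as 12, 6, 1 and 1. NMF1 and NMF2 thus held most tumors at each grade.

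Grade 3 tumors differed from grade 1 tumors in 417 genes. On the log2(FPKM + 1) scale, 173 of 14447 genes tested were higher in grade 3 (1.20% of the genes tested) and 244 were lower (1.69%). A gene was called where limma gave an adjusted p below 0.05 and the means were 1 or more log2 units apart. The lower genes had the larger differences. The median log2 difference was 1.21 among the higher genes, or 2.32-fold, and -1.38 among the lower genes, or 2.61-fold, whereas the median absolute log2 difference over all genes tested was 0.193. Differences of 4-fold or more were found for 48 lower genes and 7 higher genes. Of the higher genes 159 averaged at least 5 FPKM in grade 3, and of the lower genes 207 averaged at least 5 FPKM in grade 1. The same share of all genes tested was not computed. The pseudocount of 1 works against calling weakly expressed genes, so these counts are a description only. In bulk tissue, fewer cells of a type and less RNA per cell cannot be told apart, and this holds for each gene below.

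Without the 2 grade 1 libraries that stood apart, 156 genes were higher and 310 lower, and 387 of the 417 genes were called in both fits. Year of surgery was the nearest record to a batch, with grade 1 tumors from 2016, 2017 and 2018 numbering 7, 18 and 5 and grade 3 tumors 3, 16 and 1. The grade 2 tumors were from 2016 (4) and 2017 (9). Within 2017 alone, 73 genes were higher and 258 lower, and all 417 genes kept their direction. Within 2016, with 3 grade 3 and 7 grade 1 tumors, limma called 0 higher and 2 lower genes, with 1475 genes at an unadjusted p under 0.05, and 414 of 416 genes kept their direction. The 2016 and 2017 tumors had taken part in choosing the 417 genes. A kept direction within a year is therefore favoured by the choice and is a description only. The 2018 tumors included a single grade 3 tumor and were not tested alone.

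**Figure D1:**
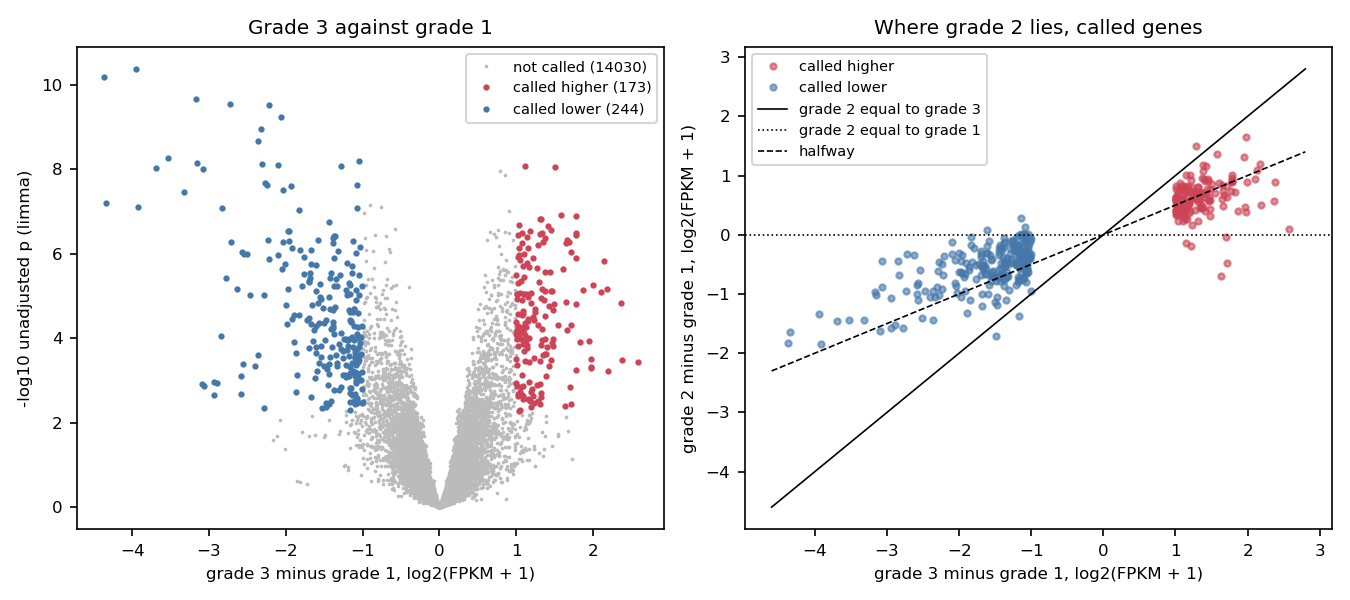
Left, each point is 1 of 14447 genes, with the grade 3 minus grade 1 difference in mean log2(FPKM + 1) on the x axis and -log10 of the unadjusted limma p on the y axis; 173 genes were called higher (red) and 244 lower (blue), and the lower genes reach farther from 0. Right, the 417 called genes, with the grade 3 minus grade 1 difference on the x axis and the grade 2 minus grade 1 difference on the y axis, both log2; most points lie between the dotted line (grade 2 equal to grade 1) and the solid line (grade 2 equal to grade 3), and the lower genes mostly lie above the dashed halfway line, nearer to grade 1.

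No called gene separated the grades completely. For 0 of the 173 higher genes did the lowest grade 3 tumor exceed the highest grade 1 tumor, and for 0 of the 244 lower genes did the highest grade 3 tumor lie under the lowest grade 1 tumor. Over all pairs of a grade 3 and a grade 1 tumor, a higher gene stood above in a median of 81.3% of pairs (66.7% to 91.0%), and a lower gene stood below in a median of 82.2% (69.3% to 94.2%). A median of 7 grade 3 tumors exceeded every grade 1 tumor for a higher gene, and a median of 3 fell under every grade 1 tumor for a lower gene. None of these values was computed over all genes tested. The same tumors chose the genes, which favours high shares of pairs, so the values are a description only.

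The spread among tumors also differed between the directions. The SD of log2(FPKM + 1) was larger in grade 3 than in grade 1 for 151 of 173 higher genes (87.3%) and for 93 of 244 lower genes (38.1%), against 53.2% of all genes tested. Median SDs of the higher genes were 0.86 in grade 1, 0.96 in grade 2 and 1.11 in grade 3, and those of the lower genes 1.19, 1.27 and 1.05. Higher genes were thus raised unevenly among grade 3 tumors. Of the lower genes 55 had a grade 3 median under 0.5 FPKM, a level at which values can vary little on this scale, whereas 14 higher genes had a grade 1 median under 0.5 FPKM. In 22 lower genes, of 29 genes among all tested, the median went from at least 5 FPKM in grade 1 to under 1 FPKM in grade 3. The grade 2 median of 21 of these was still at 1 FPKM or more, and that of 12 at 5 FPKM or more. The reverse, from under 1 FPKM in grade 1 to at least 5 FPKM in grade 3, was seen in 7 higher genes, of 12 among all tested, with a grade 2 median of at least 1 FPKM in 4.

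The gene with the largest decrease was ENSCAFG00000006430. Its FPKM in grade 1 tumors ran from 6.29 over a median of 208 to 3263, in grade 2 tumors from 0.221 over 118 to 702 and in grade 3 tumors from 0.139 over 3.98 to 116. All 20 grade 3 tumors lay below the grade 1 median, and 11 lay below the lowest grade 1 tumor. The mean log2 difference was -4.37 (SE 0.53, adjusted limma p = 4.83e-07), a 20.6-fold lower level in grade 3. Grade 2 tumors spanned both ranges for this gene: 3 lay below every grade 1 tumor, and 3 lay above the grade 1 median.

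ENSCAFG00000010061 was the lower gene with the least overlap after ENSCAFG00000006430. Grade 3 stood above grade 1 in 6.0% of pairs for it and in 5.83% for ENSCAFG00000006430. It was measured at 12.0, 188 and 913 FPKM (lowest, median and highest) in grade 1, at 0.283, 161 and 714 FPKM in grade 2 and at 0.119, 6.64 and 160 FPKM in grade 3. Again all 20 grade 3 tumors were below the grade 1 median, and 13 were below the lowest grade 1 tumor (14 without the tumors labelled simple adenoma). The log2 difference was -3.95 (SE 0.48, adjusted limma p = 4.83e-07), or 15.4-fold lower. For both of these lower genes the grade 2 median stayed near that of grade 1, while 3 and 4 grade 2 tumors, respectively, lay below every grade 1 tumor.

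The named higher genes gave less distinct groups than the named lower genes. ENSCAFG00000023449 had the largest increase, with FPKM of 0.0563, 6.02 and 193 (lowest, median and highest) in grade 1, of 0.226, 6.62 and 47.2 in grade 2 and of 1.19, 15.4 and 1178 in grade 3. The highest grade 1 value belonged to a tumor labelled simple adenoma. Only 6 of 20 grade 3 tumors exceeded every grade 1 tumor (8 without the tumors labelled simple adenoma), 5 lay below the grade 1 median, and grade 3 stood above grade 1 in 74.3% of pairs. The log2 difference of 2.58 (SE 0.68, 5.98-fold, adjusted limma p = 0.00766) was thus carried by part of the grade 3 tumors. No grade 2 tumor exceeded the highest grade 1 tumor. Within 2016 the log2 difference of this gene was 0.026 (adjusted limma p = 0.995).

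ENSCAFG00000009184, the higher gene with the least overlap, behaved more evenly. Its FPKM was 11.8, 16.3 and 48.6 (lowest, median and highest) in grade 1, 7.21, 25.6 and 66.8 in grade 2 and 15.5, 47.0 and 83.7 in grade 3. Of 20 grade 3 tumors 19 exceeded the grade 1 median and 8 exceeded every grade 1 tumor, and grade 3 stood above grade 1 in 91.0% of pairs. The log2 difference was 1.11 (SE 0.16, 2.16-fold, adjusted limma p = 7.77e-06). Grade 2 tumors were divided, 5 of 13 exceeding every grade 1 tumor and 2 lying below every grade 1 tumor. A pair of identifiers with high levels in other tumors of the cohort, ENSCAFG00000009558 and ENSCAFG00000006073, were not called, with log2 differences of 0.51 (adjusted limma p = 0.491) and 0.30 (adjusted limma p = 0.833).

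**Figure D2:**
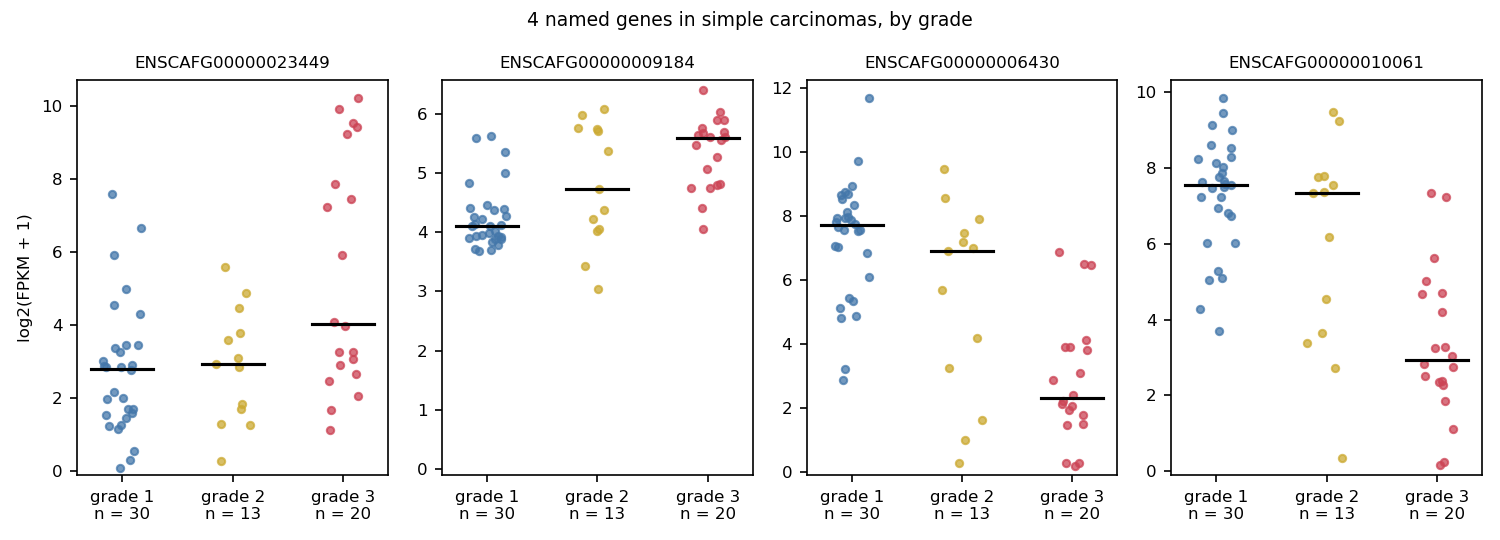
Each panel is 1 gene, with log2(FPKM + 1) on the y axis, a point per tumor and a line at the median of 30 grade 1, 13 grade 2 and 20 grade 3 simple carcinomas. Grade 3 tumors lie low for ENSCAFG00000006430 and ENSCAFG00000010061, 6 of them lie above all other tumors for ENSCAFG00000023449, and grade 2 tumors spread over both ranges for ENSCAFG00000009184.

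Grade 2 was tested against both neighbours in a fit over the 3 grades, which shares the grade 1 and grade 3 tumors with the comparison above. Against grade 1, limma called 0 of 14477 genes (0% of the genes tested), with 1149 genes at an unadjusted p under 0.05. Against grade 2, grade 3 tumors differed in 1 gene (0.00691%), with 1599 genes at an unadjusted p under 0.05. This gene, ENSCAFG00000002156, is named after its value was seen. Its FPKM was 2.16, 22.4 and 68.7 (lowest, median and highest) in grade 1, 4.36, 17.1 and 51.7 in grade 2 and 0.213, 3.67 and 29.7 in grade 3. Grade 1 and grade 2 tumors covered much the same range, and 19 of 20 grade 3 tumors lay below the grade 1 median. Grade 3 was lower than grade 2 by a log2 difference of -1.98 (SE 0.37, adjusted limma p = 0.0214), and the call was lost when libraries were scaled to the same median FPKM or when the solid grade 2 tumor was left out.

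Among the genes that differed between grade 3 and grade 1, the grade 2 mean lay between the other two means in 402 of 417 (96.4%), against 38.2% of all genes tested. Since the genes were chosen for a wide distance between grades 1 and 3, a group outside the fit has more room to fall between them than for other genes, and the share is a description only. The position of grade 2 on the way from grade 1 to grade 3 was taken for each direction. For the higher genes grade 2 had covered a median of 48.8% of the distance (quartiles 37.8% to 57.3%), and it was nearer to grade 1 in 93 of 173. For the lower genes the median was 35.0% (quartiles 21.4% to 46.6%), and grade 2 was nearer to grade 1 in 196 of 244 (80.3%), beside 53.0% of all genes tested. In log2 units, the higher genes rose by a median of 0.60 from grade 1 to grade 2 and by 0.65 from grade 2 to grade 3. The lower genes had medians of -0.50 and -0.96 for the same steps. Over all genes tested these medians were 0.09 and -0.08, so that grade 2 stood slightly high for genes in general. Such an offset moves grade 2 toward grade 3 for the higher genes and toward grade 1 for the lower genes. The positions were not corrected for it, and a difference between the directions was not tested.

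The mean of grade 2 covered widely differing tumors. For each tumor, the mean deviation from the grade 1 mean was taken over the 173 higher genes and over the 244 lower genes, and the second was subtracted from the first. This gap is about 0 for a tumor like the average grade 1 tumor and grows with both kinds of change. In the grades that defined the genes it was by construction low and high: -1.83 to 1.67 in grade 1 (median -0.20) and 0.56 to 4.45 in grade 3 (median 2.98), with 17 of 20 grade 3 tumors above the highest grade 1 tumor. The 13 grade 2 tumors, which took no part in choosing the genes, ran from -1.17 to 3.30, with a median of 1.08. Of these, 5 lay above every grade 1 tumor, 5 lay below every grade 3 tumor and 3 lay in the range that the grades shared.

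The 5 grade 2 tumors above every grade 1 tumor were CMT-148, with a gap of 3.30, CMT-632, CMT-234, CMT-003 and CMT-210, with 2.29. All 5 were tubulopapillary and without lymphatic invasion. Of these, 4 were the grade 2 tumors of the basal class, whose gaps of 2.32 to 3.30 compare with -1.17 to 2.29 (median 0.30) in the 9 non-basal grade 2 tumors. The solid grade 2 tumor had a gap of -0.16, within the grade 1 range. By ER status, the 4 ER-negative grade 2 tumors ran from -1.17 to 3.30 and the 9 ER-positive ones from -0.75 to 2.38, so that both covered most of the range. The class and the gap are read from the same libraries, and which PAM50 genes are among the 417 was not analysed here.

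**Figure D3:**
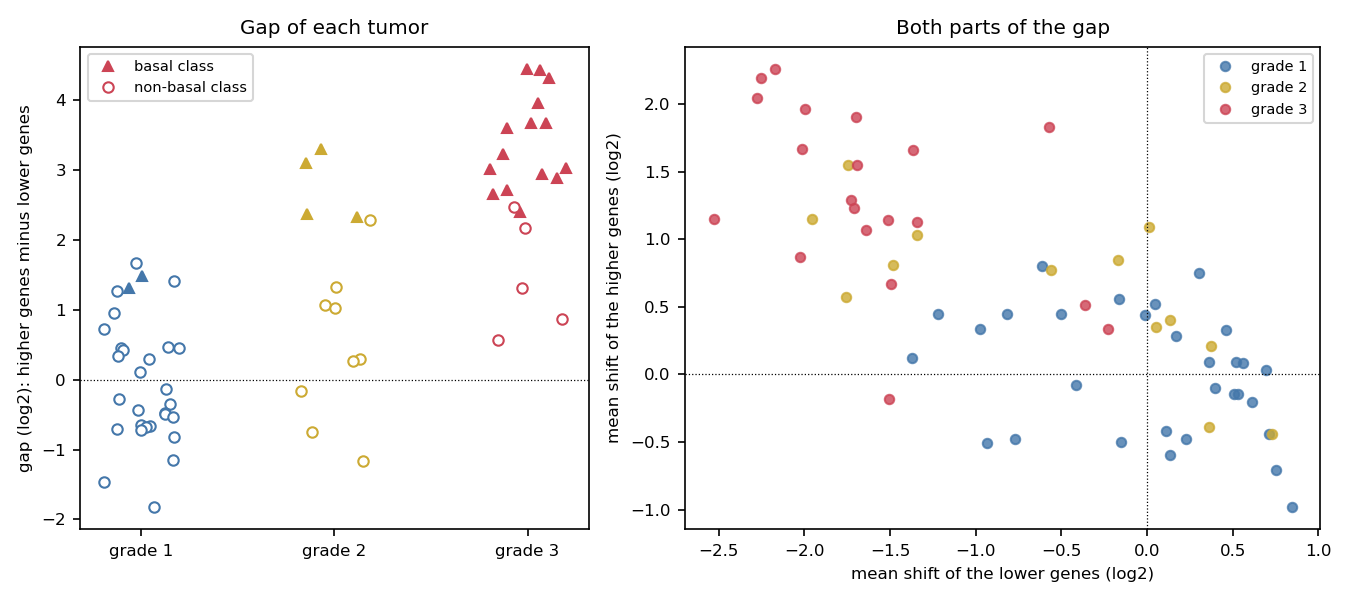
Left, the gap of each simple carcinoma (mean log2 shift of the 173 higher genes minus that of the 244 lower genes, both from the grade 1 mean), by grade, with filled triangles for the basal class and open circles for the non-basal class; the 4 basal grade 2 tumors lie at 2.32 to 3.30, above every grade 1 tumor. Right, the shifts that make up the gap, lower genes on the x axis and higher genes on the y axis, a point per tumor; grade 2 tumors are found among both the grade 1 and the grade 3 tumors.

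The genes also varied together among tumors that had not been used to choose them. Across the 13 grade 2 tumors, the median Spearman correlation between pairs of higher genes was 0.28, between pairs of lower genes 0.47 and between a higher and a lower gene -0.29, beside 0.016 over all pairs of genes tested. Across 27 grade 1 complex carcinomas the same medians were 0.23, 0.15 and -0.075, beside 0.037. The pairs of all genes were not sorted by direction, so that positive and negative correlations can cancel in their median. Nor were they matched for spread: the median SD in grade 2 was 0.96 for the higher and 1.27 for the lower genes, against 0.51 for all genes tested. All values of a tumor come from 1 library and share its scaling.

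Grade 3 tumors were themselves not uniform. The gap was 2.41 to 4.45 (median 3.24) in the 15 basal and 0.56 to 2.47 (median 1.32) in the 5 non-basal grade 3 tumors. The 2 tubulopapillary grade 3 tumors had gaps of 0.56 and 2.17, the 17 solid ones 0.87 to 4.45 (median 3.02), and the anaplastic one 3.96. The 2 basal grade 1 tumors reached 1.31 and 1.49, near the top of their grade, and the highest grade 1 tumor, at 1.67, was labelled simple adenoma. When only non-basal tumors were compared, 5 of grade 3 with 28 of grade 1, limma called 0 genes in either direction, with 715 genes at an unadjusted p under 0.05. The medians of the 173 and 244 genes were then 0.48 and -0.99, and 383 of 415 genes kept their direction. The tumors of this fit were among those that chose the genes, which favours a kept direction. This fit was added after the data had been seen, and the part of the basal class in the difference between grades was not tested apart from its smaller number of tumors.

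The difference between grades was next measured within tumors alike in other features. Among ER-positive tumors (11 of grade 3, 29 of grade 1), 100 genes were higher and 89 lower. Among tumors without lymphatic invasion (7 and 30), 77 were higher and 142 lower. Within the NMF1 cluster (12 and 17), 179 were higher and 242 lower, close to the counts over all tumors. In each of these fits every gene of the 417 that was tested kept its direction, and the median log2 differences of the higher and lower genes were 1.19 and -1.23 in ER-positive tumors, 1.12 and -1.57 in tumors without invasion and 1.28 and -1.42 in NMF1. These medians lay close to those over all tumors, 1.21 and -1.38. All tumors in these fits had taken part in choosing the 417 genes. The kept direction and the similar medians are therefore favoured by the choice and are a description only. In grade 3, the gap of the 9 ER-negative tumors had a median of 3.03 and that of the 11 ER-positive tumors 2.66, and the gap of the 7 tumors without invasion had a median of 2.90 against 3.24 in the 13 with invasion.

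Adjacent normal tissue and benign tumors were set beside the grades to order the levels. In the 14 tumors called simple adenoma in both sources, the gap ran from -1.08 to 0.58 with a median of -0.08, within the range of grade 1. In the 64 normal tissues it ran from -1.12 to 3.01 with a median of 0.47. The higher genes stood in grade 1 about where they stood in normal tissue, with a median log2 difference (grade 1 minus normal) of 0.18, and exceeded normal tissue in grade 3 for 164 of 173 genes, with a median of 1.36. The lower genes followed another order. Grade 1 exceeded normal tissue for 198 of 244 of them, with a median log2 difference of 0.61, while grade 3 was below normal tissue for 227, with a median of -0.94. Over all genes tested grade 1 exceeded normal tissue for 56.8%, with a median of 0.04, and grade 3 exceeded it for 52.7% and lay below it for 47.2%. Because the genes were chosen for a high grade 1 and a low grade 3 level, or the reverse, these counts of grade means on either side of normal tissue are favoured by the choice and are a description only. The simple adenomas took no part in it: they exceeded normal tissue for 194 of 244 lower genes (79.5%, median 0.65) and for 81 of 173 higher genes (46.8%, median -0.03), beside 60.6% of all genes.

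ENSCAFG00000006430 and ENSCAFG00000010061 showed this order in full. Their medians were 39.9 and 51.0 FPKM in normal tissue and 157 and 214 FPKM in simple adenomas, beside 208 and 188 FPKM in grade 1 and 3.98 and 6.64 FPKM in grade 3. Normal tissues varied widely, from 0.0985 to 408 FPKM for ENSCAFG00000006430 and from 0.0882 to 469 FPKM for ENSCAFG00000010061. ENSCAFG00000009184 had a median of 25.0 FPKM in normal tissue, between its medians of 16.3 FPKM in grade 1 and 47.0 FPKM in grade 3.

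**Figure D4:**
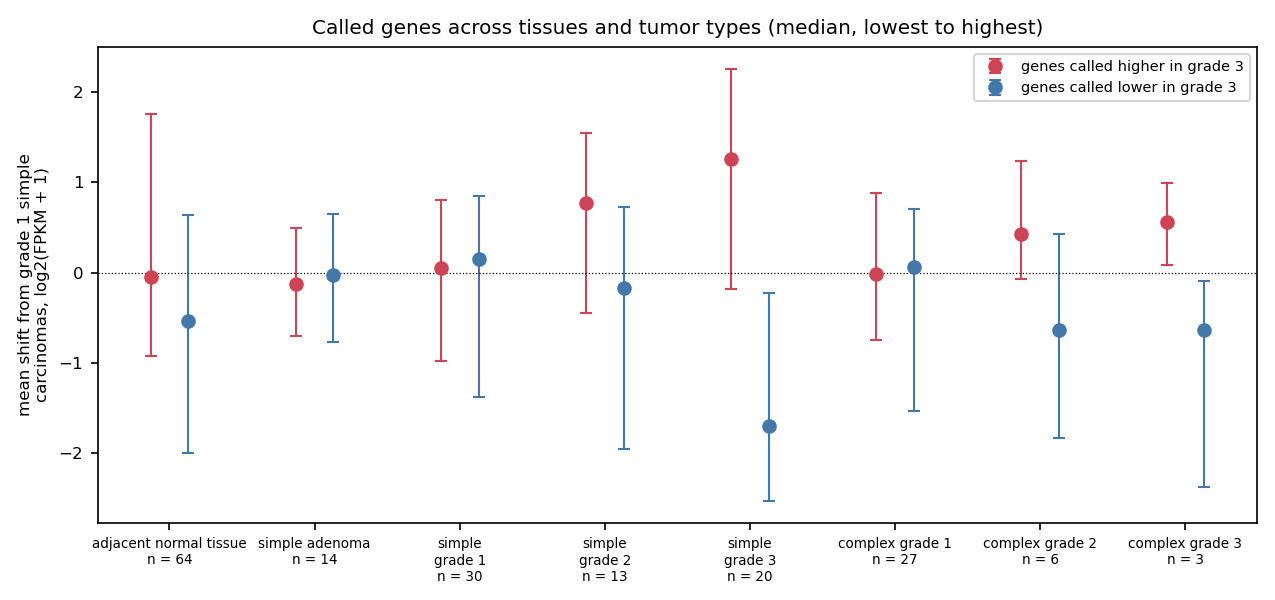
Mean log2(FPKM + 1) shift from the grade 1 simple carcinoma mean, over the 173 genes higher in grade 3 (red) and the 244 lower genes (blue); points are medians over samples, and bars run from the lowest to the highest sample. Grade 1 and grade 3 simple carcinomas were used to choose the genes; the lower genes have a median shift of -0.54 in normal tissue and -1.69 in grade 3, and grade 2 simple carcinomas span the ranges of both other grades.

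Complex carcinomas, in which myoepithelial cells proliferate beside the epithelium, offered a comparison without shared samples: 3 grade 3 against 27 grade 1 tumors, 3 of the latter labelled complex adenoma. In them limma called 203 of 14390 genes (1.41%), 129 higher and 74 lower. Of the genes that differed in simple carcinomas, 352 of the 411 tested there had the same direction (85.6%), against 66.6% of all genes. The share was 229 of 244 lower genes (93.9%, median log2 difference -0.92) and 123 of 167 higher genes (73.7%, median 0.73). A difference of at least 2-fold in the same direction was found for 38.4% of them, against 4.81% of all genes, and 26 were called, 8 higher and 18 lower, all in the direction seen in simple carcinomas.

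With 3 tumors in grade 3, this comparison depended on CMT-153: without it 24 genes were called and 74.0% of the genes kept the direction, and without CMT-142 or CMT-301 the counts were 558 and 552. The share of all genes in the same direction was not computed for these fits, so the 74.0% has no background beside it. CMT-153 and CMT-142 are of the basal class, with gaps of 3.36 and 1.20, and the non-basal CMT-301 had a gap of 0.18. The 27 grade 1 complex carcinomas ran from -0.91 to 2.23. CMT-142 and CMT-301 thus lay within the grade 1 range, and only CMT-153 lay above it. Over all grades, the 6 basal complex carcinomas (1 of grade 1, 3 of grade 2 and 2 of grade 3) had gaps of 1.20 to 3.36, and the 30 non-basal ones of -0.91 to 0.82, so that these groups did not overlap. Class and grade were not tested apart in complex carcinomas. ENSCAFG00000009184 was called in complex carcinomas, at 34.2, 41.0 and 73.4 FPKM in the 3 grade 3 tumors against a grade 1 median of 16.0 FPKM (log2 difference 1.43, SE 0.30, adjusted limma p = 0.0102). So was ENSCAFG00000002156, with a log2 difference of -1.98 (adjusted limma p = 0.0128). ENSCAFG00000006430 and ENSCAFG00000010061 had log2 differences of -2.74 and -3.20 there but were not called (adjusted limma p = 0.217 and 0.0781). ENSCAFG00000023449 gave -0.17 (adjusted limma p = 0.954).

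Among adjacent normal tissues, those of 9 dogs with grade 3 tumors were compared with those of 7 dogs with grade 1 tumors. Here limma called 0 of 14523 genes (0%), with 251 genes at an unadjusted p under 0.05. The 417 genes had the direction seen in the tumors for 309 of the 413 tested (74.8%), against 53.0% of all genes, with small median log2 differences of 0.26 for the higher and -0.25 for the lower genes. These dogs are not independent of the choice of genes: their tumors were among the 50 used for it, and both tissues of a dog tended to deviate together from their group means (median correlation 0.301, above 0.1 in 13 of 16 dogs). In normal tissue ENSCAFG00000006430 and ENSCAFG00000010061 had log2 differences of 0.40 and 0.30, opposite in sign to those in tumors (adjusted limma p = 0.992 and 0.994). ENSCAFG00000023449 and ENSCAFG00000009184 had differences of 1.32 and 0.11 in the direction of the tumors (adjusted limma p = 0.992 and 0.994). For ENSCAFG00000023449, 2 of the 9 normal tissues of dogs with grade 3 tumors exceeded every grade 1 tumor, at up to 577 FPKM, with a median of 14.3 FPKM against 4.73 FPKM in the 7 of grade 1 dogs. Tumor and normal tissue of a dog pair by animal. When each tumor was measured against the normal tissue of the same dog, with the dog as a replicate block, limma called 0 higher and 6 lower genes, with 1132 genes at an unadjusted p under 0.05, and 404 of 417 genes kept their direction. The log2 difference of ENSCAFG00000023449 was 0.93 in this paired fit (adjusted limma p = 0.881). In the same 16 dogs without the pairing, tumor values alone gave 5 higher and 60 lower genes. Because the tumors of these dogs had helped to choose the 417 genes, the kept direction in the paired fit is favoured by the choice.

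**Figure D5:**
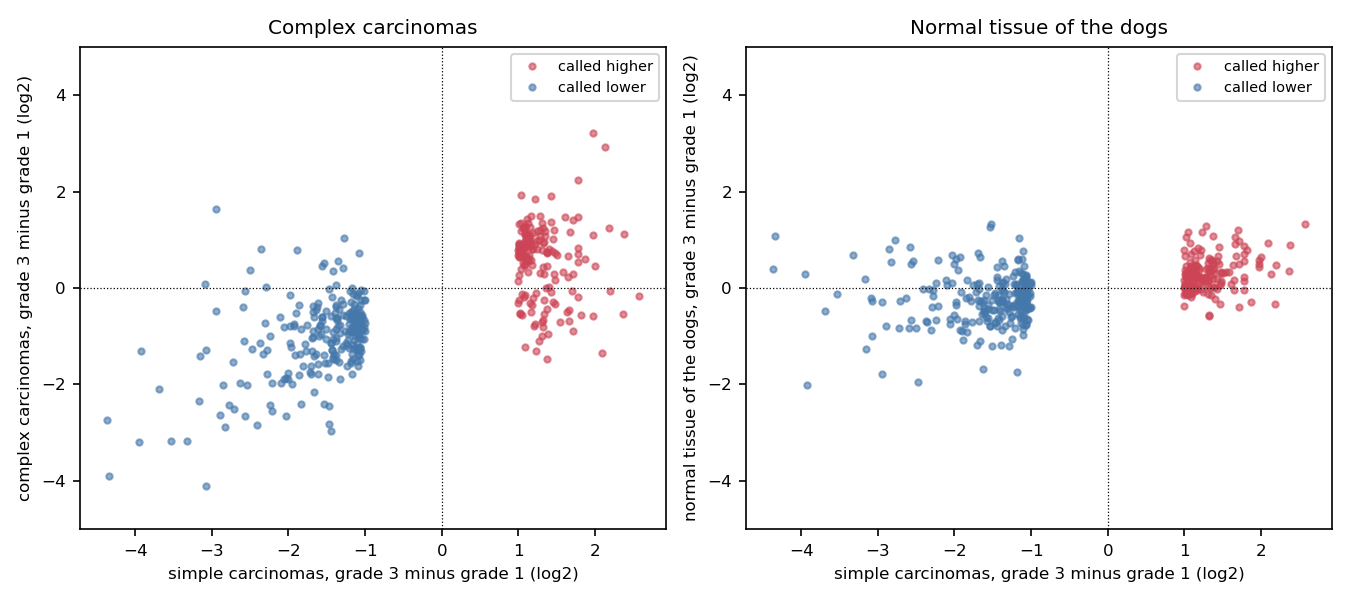
The 417 genes called in simple carcinomas, with their grade 3 minus grade 1 difference there on the x axis and the same difference on the y axis in complex carcinomas (left, 3 against 27 tumors) and in adjacent normal tissue of dogs with simple carcinomas (right, 9 against 7 tissues), all in log2(FPKM + 1). The direction was kept by 85.6% of the genes in complex carcinomas and by 74.8% in normal tissue, where the differences were small.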

How the data were processed

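RNA of 158 tumors and 64 adjacent normal tissues was sequenced after poly(A) selection. The authors mapped reads to CanFam3.1 with TopHat2 2.0.9 and deposited FPKM values from Cufflinks 2.1.1. FPKM is scaled to transcript length and library size, and no further scaling between libraries is stated. Read numbers per gene are unknown, so no counting error can be given. Tissue, diagnosis, ER, HER2, invasion, age, year and survival came from the sample labels, and grade, cluster and class from the study's clinical table. 1 tumor without a line there was left out.

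Grades were compared on log2(FPKM + 1) by limma 3.58.1 (R 4.3.3; intensity trend), over genes with a mean of at least 0.5 FPKM in the libraries of a fit, with Benjamini-Hochberg adjustment. Calls were made below an adjusted p of 0.05 where means lay 1 or more log2 units apart. The pseudocount of 1 understates changes of weakly expressed genes. Permutation tests (Python 3.11.15) used 100000 resamples and the log-rank test 10000, all two-sided. Each library is from another dog, or from another tissue of a dog, and no pair of libraries was identical.

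Tumor and normal tissue pair by dog according to the labels. Their deviations from the group means correlated above 0.1 in 13 of 16 dogs (median 0.301).

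Of 24580 identifiers, 3857 were at 0 in every library and 33 carried the values of another identifier, none of them among the called genes. The RefSeq gene table matched 0 identifiers, so no sequence or position is shown. Genes were named in each direction among called genes with at least 5 FPKM in the higher grade. The gene with the largest difference was taken first, and then, among the rest, that with the least overlap between the grades. A pair of identifiers high in other tumors of the cohort was added. Samples, gene rules and lists were chosen with earlier results of these data known. Alternatives changed the pseudocount, the filter, the scaling, the covariates and the tumors included.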

Additional observations from a re-analysis of the deposited data

Results flagged for a closer look

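Among 16 checks of the 4 named genes in groups of 4 to 10 samples, 1 sample lay far from the others, and chance alone gives such a sample in about 1 in 20 groups. It was the normal tissue of CMT-197, a dog with a grade 2 tumor, with 18.7 FPKM of ENSCAFG00000023449 against 0.904 FPKM in the next of 5 tissues. The cause was not tested.

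The grade 3 minus grade 1 difference was compared between complex and simple carcinomas with an interaction term in limma. It differed for 44 of 14486 genes, 4 of them among the 417 genes called in simple carcinomas, and 729 genes had an unadjusted p under 0.05. Without the complex carcinoma CMT-153 6 genes differed, without CMT-142 132 and without CMT-301 27. The same test between the clusters NMF2 and NMF1 called 0 of 14345 genes, with 717 genes at an unadjusted p under 0.05.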

How the results depend on the processing

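The counts of higher and lower genes moved beyond 1.5 times with a pseudocount of 0.1 (340 and 468), with the adjusted p alone (743 and 806), within 2016 (0 and 2), in ER-positive tumors (100 and 89), in tumors without invasion (77 and 142), in non-basal tumors (0 and 0), against the dog's own normal tissue with the dog as replicate block (0 and 6) and in the same dogs without that pairing (5 and 60); within 2017 only the higher count did so (73). The subsets held fewer tumors; causes were otherwise not tested. Survival by the clinical table and the fits in non-basal tumors, in the same dogs without pairing and without the 2 libraries that stood apart were added after the data had been seen. Under the other alternatives the higher genes numbered 129 to 246 and the lower genes 221 to 310. Grade 2 against grade 1 gave 1 gene with libraries scaled to the same median. Grade 3 against grade 2 gave 3 genes with a pseudocount of 0.1, 2 without the 4 tumors labelled simple adenoma, 4 without the 2 libraries that stood apart, 0 with scaled libraries (1550 at an unadjusted p under 0.05) and 0 with tubulopapillary grade 2 tumors alone (1454). The share of genes with grade 2 between the other grades was 91.6% by medians and 98.4% without the 4 tumors labelled simple adenoma. Leaving out each grade 3 complex carcinoma gave 24 to 558 called genes and 74.0% to 86.6% of genes in the same direction.

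None of the 4 genes chosen by rule changed direction. Over 24 alternatives, the log2 difference of ENSCAFG00000006430 ran from -5.27 to -3.08 and that of ENSCAFG00000010061 from -4.76 to -2.95, each keeping its call in 20. That of ENSCAFG00000009184 ran from 0.62 to 1.75 and that of ENSCAFG00000023449 from 0.026 to 3.13, each keeping its call in 18. The fits that lost calls held fewer tumors, and in some of them the difference itself was smaller. For ENSCAFG00000023449 it was 0.026 within 2016 and 1.08 in non-basal tumors, but 2.75 in tumors without invasion, beside 2.58 over all tumors. For ENSCAFG00000009184 it was 0.62 in non-basal tumors but 1.75 within 2016, beside 1.11 over all tumors.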
